A study of Mus musculus with 16 samples.

Results

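The data described here are the mRNA levels of 10 genes that code for the adaptors and kinases of Toll-like receptor signalling, out of 15877 genes tested on the arrays. The members are the adaptors Myd88, Tirap and Ticam1, the interleukin-1 receptor associated kinases Irak1, Irak2, Irak3 and Irak4, the ubiquitin ligase Traf6, and the kinases Map3k7 (TAK1) and Map3k8 (TPL2). They were found by their gene names on the array, which gave 18 probes, of which 17 were bright enough to be tested, and all 10 genes had at least 1 such probe. The choice used no measured value of these samples, although earlier results of the same data were known when the genes were chosen.

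The RNA came from 4 cultures in each of 4 conditions (16 arrays) of RAW264.7, an established mouse cell line that resembles macrophages. Cells were treated with DMSO, the vehicle, or with 20 μM cordycepin (3′ deoxyadenosine, an adenosine analogue that inhibits polyadenylation) in DMSO for 60 min. LPS, the bacterial lipopolysaccharide sensed by Toll-like receptor 4, was then added to some wells at 1 μg/ml for a further 60 min, and the wells without LPS were kept in DMSO or cordycepin so that every culture lasted 120 min. These groups are called DMSO, cordycepin, LPS+DMSO and LPS+cordycepin. All cells were in medium with little serum from the day before treatment, all received DMSO, and all came from one established line. Each replicate number is 1 collection day with its 4 wells on 1 plate. Of 15 macrophage markers, 12 were well above background on all 16 arrays, against 0 of 5 fibroblast, 0 of 4 epithelial and 0 of 4 B cell markers. The T cell list had 3 of 5 markers above background on all arrays (Cd3e, Cd4 and Lck) and the neutrophil list 2 of 5 (Elane and S100a8). In the B cell list, Cd79a was well above background on 12 of 16 arrays and Cd79b on 9, and in the neutrophil list Mpo on 13. The part of these genes in the results was not tested. Replicates 1 and 2 of every condition lay on 1 slide (21999 to 26055 spots well above background) and replicates 3 and 4 on the other (27151 to 30362 spots).

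When LPS meets Toll-like receptor 4, the bridging adaptor Tirap brings Myd88 to the receptor, Myd88 assembles Irak4 with Irak1 or Irak2, and these activate Traf6, whose ubiquitin chains recruit Map3k7 and, through it, the kinases that release NF-κB and start the MAP kinase cascades. A second route runs from internalised receptors through the adaptor Ticam1 (TRIF) to the interferon genes, and also feeds into NF-κB. Irak3 (IRAK-M) restrains the first route, and Map3k8 activates the ERK branch when NF-κB1 p105, which holds it, is degraded. Much of this control acts on the proteins, and arrays do not measure that.

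The probes of 2 members carry the results, and the first 30 bases of a probe of each are shown so that a reader can see which part of the transcript was measured. Ticam1 was measured by 1 probe, at chr17:56409265-56409324 on mm9, minus strand. Irak2 was measured by a brighter and a dimmer probe on the same transcript, and the dimmer one is at chr6:113643695-113643754, plus strand.
Ticam1 probe: agagtgaccaggttggaccccacctagatg
Irak2 dimmer probe: aagccaaaaggagactgatggagaacatcg

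LPS raised Ticam1 and cordycepin lowered it, and Ticam1 was the one member that passed both the test and the 2-fold minimum by its brightest probe. All values below are log2 of the processed array signal, scaled between arrays. In DMSO, Ticam1 measured 9.93, 9.61, 9.63 and 9.96 in replicates 1 to 4. In LPS+DMSO it measured 11.26, 11.25, 11.19 and 11.39, so the 4 arrays with LPS all lay above the 4 without. The means were 9.78 ± 0.19 and 11.27 ± 0.09 (SD, n = 4), a rise of 1.49 on the log2 scale (SE 0.11, 95% confidence interval 1.25 to 1.73) or 2.81-fold, with an adjusted p of 1.55e-07 by limma. The rise was present on each of the 4 days, from 1.33 to 1.64, and was 1.48 on the slide of replicates 1 and 2 and 1.495 on that of replicates 3 and 4.

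With cordycepin alone, Ticam1 measured 8.87, 8.92, 9.08 and 8.95, below every DMSO array. The mean of 8.96 ± 0.09 was 56.4% of the DMSO signal, a log2 change of -0.83 (SE 0.11, limma adjusted p = 6.56e-05), which passed the test but not the 2-fold minimum. With LPS+cordycepin the values were 9.95, 10.15, 10.04 and 10.42. These lay below all LPS+DMSO arrays and above all cordycepin arrays, and the lowest of them lay within the range of DMSO. The mean of 10.14 ± 0.20 was 45.6% of that in LPS+DMSO, a log2 change of -1.13 (SE 0.11, interval -1.37 to -0.89, limma adjusted p = 2.01e-06), and the fall was seen on all 4 days (-1.31 to -0.97).

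LPS also raised Ticam1 in the presence of cordycepin. Against cordycepin alone, LPS+cordycepin was higher by 1.18 on the log2 scale (SE 0.11, limma adjusted p = 3.41e-06), or 2.27-fold, again on 4 of 4 days. This call was lost when arrays were scaled to the spiked-in controls (0.88, SE 0.38, limma adjusted p = 0.37), a scaling that moved the median of all genes in the comparison to -0.35. The interaction, the response to LPS in cordycepin less that in DMSO, was -0.31 (SE 0.16, interval -0.64 to 0.03, limma adjusted p = 0.723), so a difference between the 2 responses was not detected, while the interval allows one of up to -0.64. Both levels were thus lower with cordycepin, by 0.83 without and 1.13 with LPS, where the second is the called one.

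**Figure D1:**
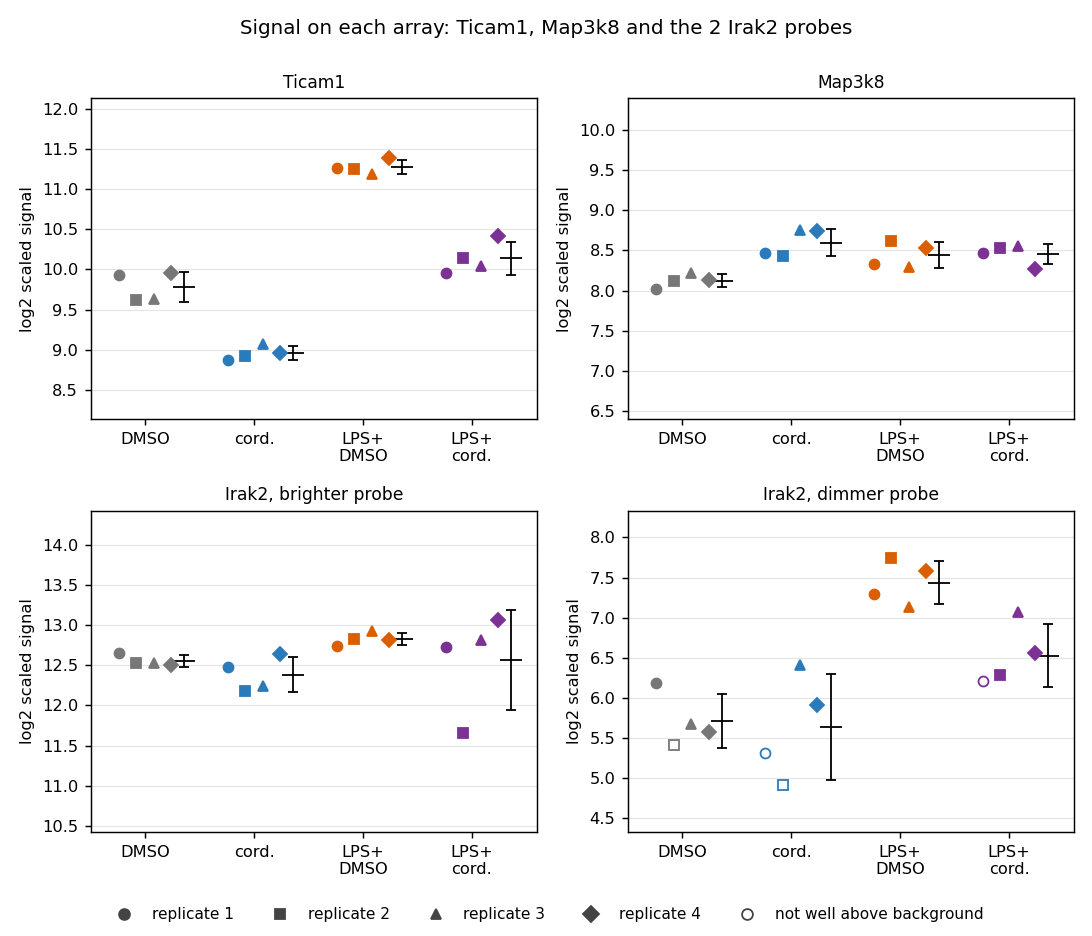
Log2 scaled signal (y axis) of Ticam1, Map3k8 and the 2 Irak2 probes on each of the 16 arrays in the 4 conditions (x axis), where each symbol is 1 replicate, open symbols were not well above background, and bars are the mean and SD of 4 arrays. Each panel spans 4 log2 units. The LPS+DMSO arrays of Ticam1 (11.19 to 11.39) lie above all others, and the dimmer Irak2 probe separates LPS+DMSO (7.14 to 7.74) from DMSO (5.41 to 6.19) while the brighter one moves little.

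The 250 bases before the RefSeq start of Ticam1 (GRCm38.p6, chr17:56276768-56277017, minus strand) are shown for the member that was called, with capitals marking an E-box (CACGTG).
Ticam1 upstream: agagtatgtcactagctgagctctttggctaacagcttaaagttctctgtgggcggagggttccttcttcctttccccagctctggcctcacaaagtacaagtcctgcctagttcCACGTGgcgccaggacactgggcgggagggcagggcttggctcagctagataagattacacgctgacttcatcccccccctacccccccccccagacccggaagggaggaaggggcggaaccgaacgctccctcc
The E-box begins at position -135 from the start. The window from 250 bases before to 50 after the start, read on both strands, held no match to the kappaB consensus, the AP-1 motif TGANTCA or TGACGT, the core of the cAMP response element. Among all 32851 RefSeq windows of that length, 7.15% held the E-box, 8.46% the kappaB consensus, 7.81% the AP-1 motif and 7.51% the TGACGT core. RefSeq windows, 12 in number, were found for 9 of the 10 members, and a kappaB match stood in those of Irak1 and Map3k7. TGACGT stood in that of Map3k7 and in 1 window of Irak3, which also held an E-box. The other window of Irak3 held none of the motifs. Irak1, Irak3 and Map3k7 were not called in any comparison. Whether any of these motifs acts in these cells was not tested.

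Across the 3 adaptors, Ticam1 stood alone in passing the test. Myd88, the adaptor that most Toll-like receptors share, measured 12.55, 12.58, 12.35 and 12.26 in DMSO, and 12.66, 12.57, 12.78 and 12.54 in LPS+DMSO. These groups overlapped, and the log2 change was 0.21 (interval 0.00 to 0.41, limma adjusted p = 0.189). In LPS+cordycepin Myd88 measured 12.75, 12.64, 12.83 and 12.81, above the 12.60, 12.28, 12.43 and 12.48 of cordycepin, with a log2 difference of 0.31 (SE 0.10) whose limma adjusted p of 0.0665 missed the threshold. Tirap, which brings Myd88 to the receptor, differed by 0.04 between LPS+DMSO and DMSO (interval -0.23 to 0.30) and by -0.16 between LPS+cordycepin and LPS+DMSO (interval -0.43 to 0.10).

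Irak2, a kinase that sustains the response after Irak1, gave a different answer with each of its probes. The brighter probe measured 12.66, 12.53, 12.53 and 12.50 in DMSO and 12.74, 12.82, 12.92 and 12.82 in LPS+DMSO. These 2 groups did not overlap, but the log2 difference of 0.27 did not pass the test (SE 0.22, interval -0.19 to 0.74, limma adjusted p = 0.509). The LPS+cordycepin arrays of this probe were 12.73, 11.65, 12.81 and 13.07, with replicate 2 below every other array of the probe. Without that array, which enters the shared estimate of the spread, the LPS difference kept its size and had a limma adjusted p of 0.111.

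The dimmer Irak2 probe measured 6.19, 5.41, 5.67 and 5.57 in DMSO, and 7.30, 7.74, 7.14 and 7.58 in LPS+DMSO, with every LPS+DMSO array above every DMSO array. Its signal was clear of the background on 3 of 4 arrays in DMSO, 2 of 4 in cordycepin, 4 of 4 in LPS+DMSO and 3 of 4 in LPS+cordycepin, so it passed the filter on dim probes through LPS+DMSO alone, the condition where it was highest. When every kept probe was fitted on its own, this probe rose by 1.73 on the log2 scale (SE 0.29, interval 1.12 to 2.34, limma adjusted p = 0.000535), a called change, against 2.15% of 21597 kept probes called as raised. In a fit of all 55681 probes with no such filter the change was also called (limma adjusted p = 0.00393). In LPS+cordycepin it measured 6.21, 6.28, 7.07 and 6.55. These values lay below all LPS+DMSO arrays, with a log2 change of -0.91 (SE 0.29, interval -1.52 to -0.30) and a difference below 0 on 4 of 4 days, from -1.45 to -0.07. Its limma adjusted p was 0.0333 among the kept probes and 0.117 with no filter, so it did not hold apart from the filter, and it was under 2-fold. In cordycepin alone the values of 5.31, 4.92, 6.41 and 5.91 spread over both sides of DMSO, and the log2 difference was -0.07 (limma adjusted p = 0.908).

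The other 3 kinases of the family were not called by any probe. Irak1, which Irak4 phosphorylates, measured 10.90, 11.02, 11.06 and 11.18 in LPS+DMSO and 11.22, 11.62, 11.43 and 11.20 in LPS+cordycepin by its brightest probe. The groups did not overlap, and the log2 difference of 0.33 (SE 0.11) had a limma adjusted p of 0.0564, or 0.0242 with the collection day as a replicate block, under 2-fold in both fits. The adjusted p was under 0.05 in 7 of 38 alternative settings, and 0.0242 was the lowest. The other 2 probes of Irak1 gave differences of 0.06 and 0.01 in the same comparison. Irak3, the inhibitory member, differed by 0.12 between LPS+DMSO and DMSO (interval -0.11 to 0.35) and by -0.06 between LPS+cordycepin and LPS+DMSO (interval -0.29 to 0.17). Irak4, the kinase that starts the cascade, differed by 0.05 and -0.29 in these comparisons by its brighter probe, and by -0.35 and 0.08 by the other, none past the test.

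Traf6, the ligase that builds the signalling ubiquitin chains, differed by 0.19 between LPS+DMSO and DMSO (interval -0.12 to 0.50) and by -0.04 between LPS+cordycepin and LPS+DMSO (interval -0.35 to 0.27). Its second probe gave 0.34 and -0.13, and a further probe was too dim to be tested, being well above background on 10 of 16 arrays. Map3k7, the kinase that Traf6 chains recruit, was measured by 3 probes, which differed by 0.12, 0.22 and 0.26 between LPS+DMSO and DMSO and did not pass the test (lowest limma adjusted p 0.0529, when every kept probe was fitted). Between LPS+cordycepin and LPS+DMSO these probes differed by -0.17, -0.15 and 0.04, none past the test. Between cordycepin and DMSO the differences were -0.15, 0.12 and 0.19, also not past it.

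Map3k8, the kinase of the ERK branch, was higher with cordycepin in cells without LPS. It measured 8.02, 8.12, 8.21 and 8.13 in DMSO, and 8.46, 8.43, 8.76 and 8.74 in cordycepin. The groups did not overlap, and the difference of 0.48 on the log2 scale (SE 0.11, interval 0.25 to 0.70), or 1.39-fold, had a limma adjusted p of 0.00454, under the 2-fold minimum. The LPS+DMSO values of 8.33, 8.62, 8.29 and 8.53 also lay above DMSO, with a difference of 0.32 (SE 0.11) whose limma adjusted p of 0.0521 missed the threshold. With LPS+cordycepin the values were 8.47, 8.53, 8.55 and 8.27, which overlapped those of LPS+DMSO, and the log2 difference was 0.01 (interval -0.21 to 0.24). The interaction of -0.47 was below 0 on all 4 days and did not pass the test (SE 0.15, limma adjusted p = 0.264).

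**Figure D2:**
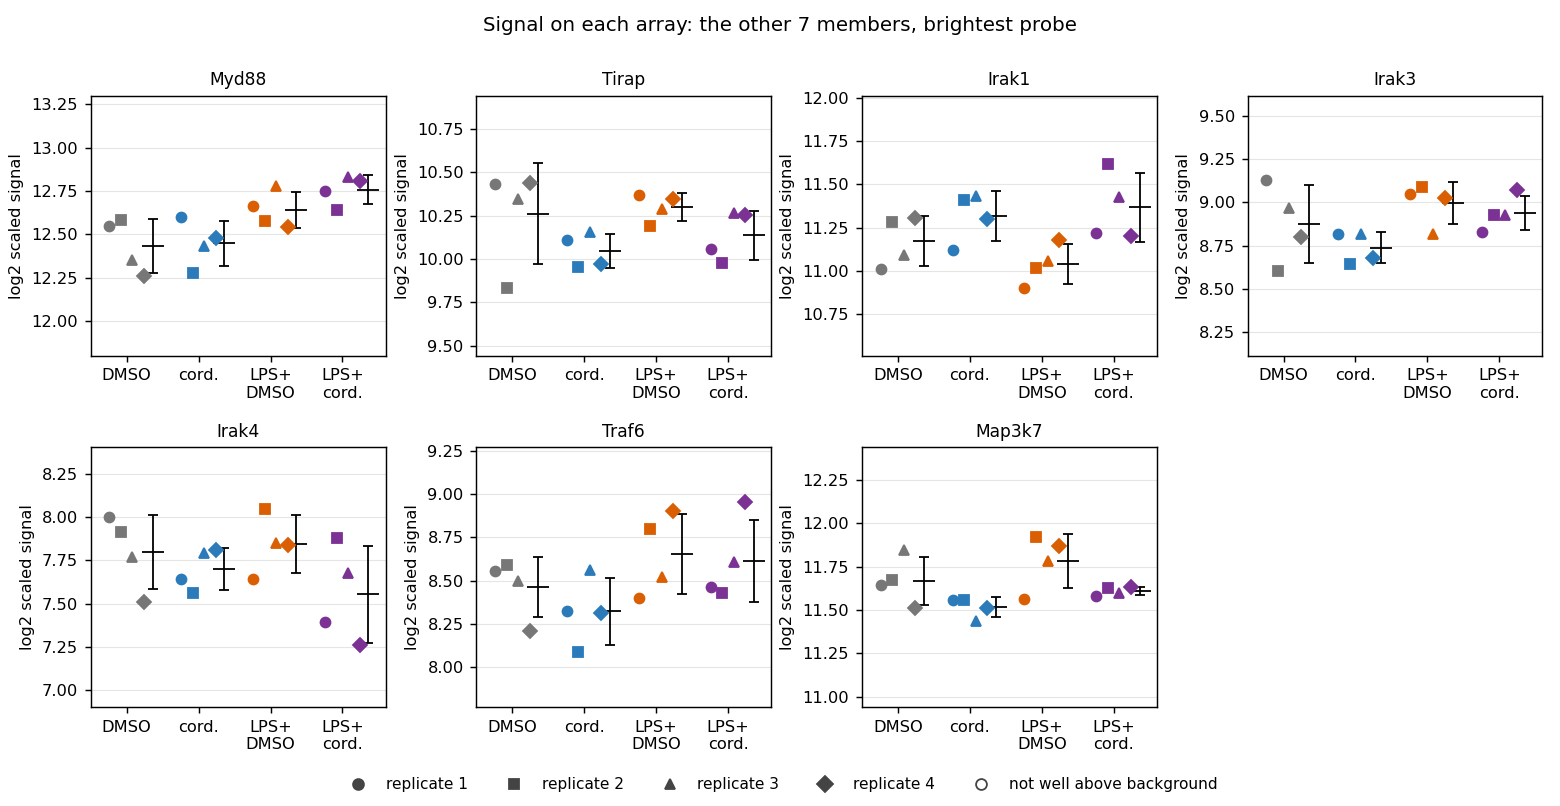
Log2 scaled signal (y axis) of the brightest probe of the other 7 members on each of the 16 arrays in the 4 conditions (x axis), with symbols, means and SD bars for 4 arrays per condition. All panels have the same span on the y axis, and the conditions overlap in most of them, as for Myd88 in DMSO (12.26 to 12.58) and LPS+DMSO (12.54 to 12.78).

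Counted over the 10 members, LPS raised 1 and lowered 0 in DMSO, where 2.09% of all genes were called as raised and 2.49% as lowered. Cordycepin in the presence of LPS lowered 1 member and raised 0, against 1.52% of all genes lowered and 5.93% raised. Cordycepin without LPS called 0 of 10 by limma at 2-fold (4.49% of all genes raised, 1.06% lowered), and at any fold 1 member was higher (Map3k8) and 1 lower (Ticam1), against 8.23% and 7.55% of all genes. LPS in the presence of cordycepin raised 1 and lowered 0 (1.69% and 1.22% of all genes). The interaction called 0 of 10 members by limma, against 0.365% of all genes called in either direction. At an unadjusted p under 0.05 it held 1 member (Map3k8), against 7.66% of all genes.

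Groups that did not overlap were more frequent than calls, among members as among all genes. LPS+DMSO and DMSO did not overlap for 3 of 10 members (Ticam1, Irak2 and Map3k8), against 18.9% of all genes. The number was 2 for LPS+cordycepin against LPS+DMSO (Ticam1 and Irak1), against 22.9%, and 2 for cordycepin against DMSO (Ticam1 and Map3k8), against 21.2%. LPS+cordycepin and cordycepin did not overlap for 4 members (Myd88, Ticam1, Irak3 and Map3k7), against 15.4%. For Map3k7 this held for the brightest probe, with a log2 difference of 0.09. Its other probes overlapped there and differed by -0.05 and 0.11. The median log2 change of the 10 members was 0.16 with LPS in DMSO, where that of all genes was -0.04, and -0.11 for LPS+cordycepin against LPS+DMSO, where that of all genes was 0.03. Comparisons that share a condition are not independent of each other.

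**Figure D3:**
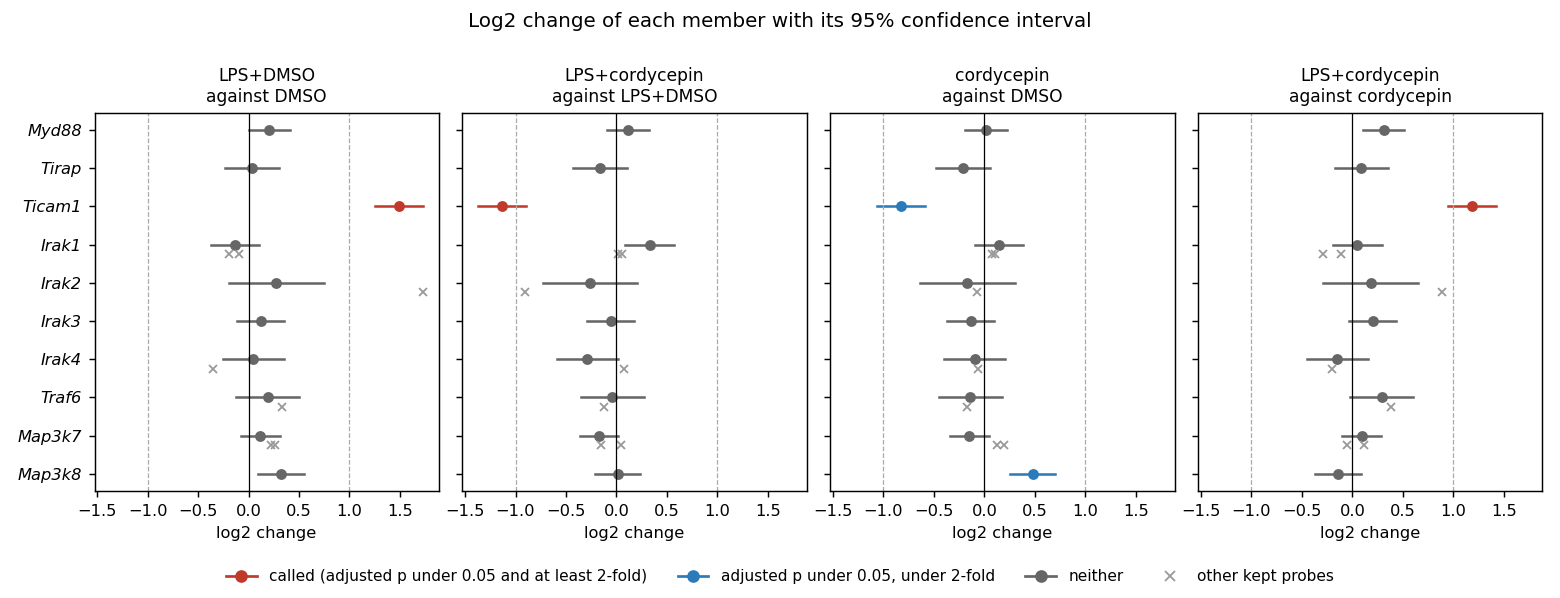
Log2 change of each member (x axis) in 4 comparisons, by its brightest probe (circles, with 95% confidence intervals) and by its other kept probes (crosses), with dashed lines at 2-fold in either direction. Ticam1 is past 2-fold in 3 of the 4 comparisons, at 1.49, -1.13 and 1.18, and the second Irak2 probe lies at 1.73 in LPS+DMSO against DMSO.

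Over the 16 arrays, the genes whose pattern was most like that of Ticam1 were Bcl6, a transcriptional repressor (Pearson r = 0.99), Hilpda, a protein of lipid droplets (r = 0.99), and Wdr43, a factor of ribosome production (r = 0.99), among 11652 other genes with a symbol. The 16 points share their 4 conditions, so these values mostly describe the condition means.

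The genes around the members were described by 6 lists, written by hand with earlier results of these data known. In the upstream and middle tiers LPS raised 1 or 2 genes of each list, where 2.09% of all genes were raised. Among 14 receptors and co-receptors tested, LPS raised 2 and lowered 0. These were Tlr2, the receptor for bacterial lipoproteins, by 2.43 on the log2 scale (SE 0.14), and Cd14, which hands LPS to its receptor, by 1.12 (SE 0.11). Among 15 further adaptors and ubiquitin enzymes it raised 2, Birc3 (1.66, SE 0.18) and Peli1 (1.48, SE 0.15), both ubiquitin ligases. Of 24 downstream kinases it raised 1, Ikbke, by 1.498 (SE 0.14), a kinase that acts with Tbk1 below Ticam1. The median log2 changes of these lists were -0.05, 0.01 and -0.01, beside -0.04 for all genes. At an adjusted p under 0.05 and any fold, 2 receptors were higher and 1 lower (Tlr4, -0.75, SE 0.10, limma adjusted p = 5.01e-05). Of the further adaptors 3 were higher and 2 lower (Tab1 and Tradd). Of the downstream kinases 2 were higher and 2 lower (Map3k1 and Mapk14). Over all 15877 genes, 816 were higher and 1556 lower by that rule.

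The 3 lists of the lower tiers held most of the called genes. Over all genes, 2.09% were raised and 2.49% lowered. The lists were written with earlier results of these data known, and the early targets as genes that the pathway induces. The contrast between tiers was thus partly set by how the lists were made and is not a test. LPS raised 13 of 29 inhibitors of the pathway and lowered 0. The largest rises were those of Tnfaip3 (A20, an enzyme that edits ubiquitin chains, 5.24 on the log2 scale, SE 0.13), Nfkbiz (IκBζ, 5.21, SE 0.22) and Zc3h12a (an RNase, 4.70, SE 0.39, with 2 of 4 DMSO arrays well above background). It raised 9 of 18 transcription factors and lowered 0, with Egr1 at least 15.7-fold higher, as it was not well above background on any DMSO array, Fos higher by 4.67 and Junb by 4.66. Of 20 early targets it raised 19 and lowered 0. Cxcl2, a neutrophil chemokine, rose by 10.09 (SE 0.58, with 2 of 4 DMSO arrays well above background) and Ifnb1, the interferon gene downstream of Ticam1, by 7.67 (SE 0.65, with 1 of 4). Il1b was at least 77.1-fold higher, being not well above background on any DMSO array. For such bounds the DMSO level was set, on each array, to the higher of the dimmest signal well above background and the probe's own. The median log2 changes of the 3 lists were 0.86, 1.20 and 3.48. These counts and medians are partly set by the filter on dim probes, which 1, 2 and 4 genes of the lists passed through the LPS conditions alone, and 6 of the 26 early targets listed were not tested. Over the genes well above background on all 16 arrays, LPS raised 12 of 27, 4 of 12 and 13 of 14, with medians of 0.86, 0.63 and 2.99.

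Among all genes, 1.52% were called as lowered and 5.93% as raised in LPS+cordycepin against LPS+DMSO, and 0 of 14 receptors were called by limma. At an adjusted p under 0.05 and any fold, 4 were lower and 0 higher. Over all 15877 genes, 1342 were lower and 1707 higher by that rule. Of the 2 receptors that LPS raised, Tlr2 averaged 14.57 against 15.45 in LPS+DMSO, and Cd14 averaged 16.02 against 16.46. Of the 15 further adaptors, 2 were lowered, Traf2 (-1.61, SE 0.11) and Peli1 (-1.29, SE 0.15), and 1 was raised, Ube2n (1.90, SE 0.13), the enzyme that provides the chains of Traf6. Traf2 and Ube2n were also the 1 gene lowered and the 1 raised of this list in cordycepin without LPS. There 1.06% of all genes were lowered and 4.49% raised. Traf2 averaged 12.22 in cordycepin against 13.64 in DMSO, and Ube2n 11.43 against 9.69. Ikbke was the 1 downstream kinase lowered (-1.07, SE 0.14). Cordycepin lowered 5 of 29 inhibitors and raised 0, with Atf3 (-2.01, SE 0.15), Tnip3 (-1.43, SE 0.19) and Nfkbie (-1.39, SE 0.11) the most. It lowered 1 of 18 transcription factors (Creb1, -1.18, SE 0.22) and 9 of 20 early targets, among them the chemokine Ccl7 (-2.12, SE 0.31), the growth factor Csf3 (-1.85, SE 0.45, well above background on 3 of 4 LPS+cordycepin arrays) and Cd83 (-1.83, SE 0.19). The median over the early targets was -1.07, and 20 of 20 were below 0, where 44.5% of all genes were. LPS had raised 19 of these 20, and LPS+DMSO enters both comparisons, so all genes are not a like reference for them. These counts and this median are partly set by the filter on dim probes. It was passed through the LPS conditions alone by 1 inhibitor, 2 transcription factors and 4 early targets. Over genes well above background on every array, cordycepin lowered 5 of 27 inhibitors, 1 of 12 transcription factors and 6 of 14 early targets. The median of those early targets was -1.01.

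**Figure D4:**
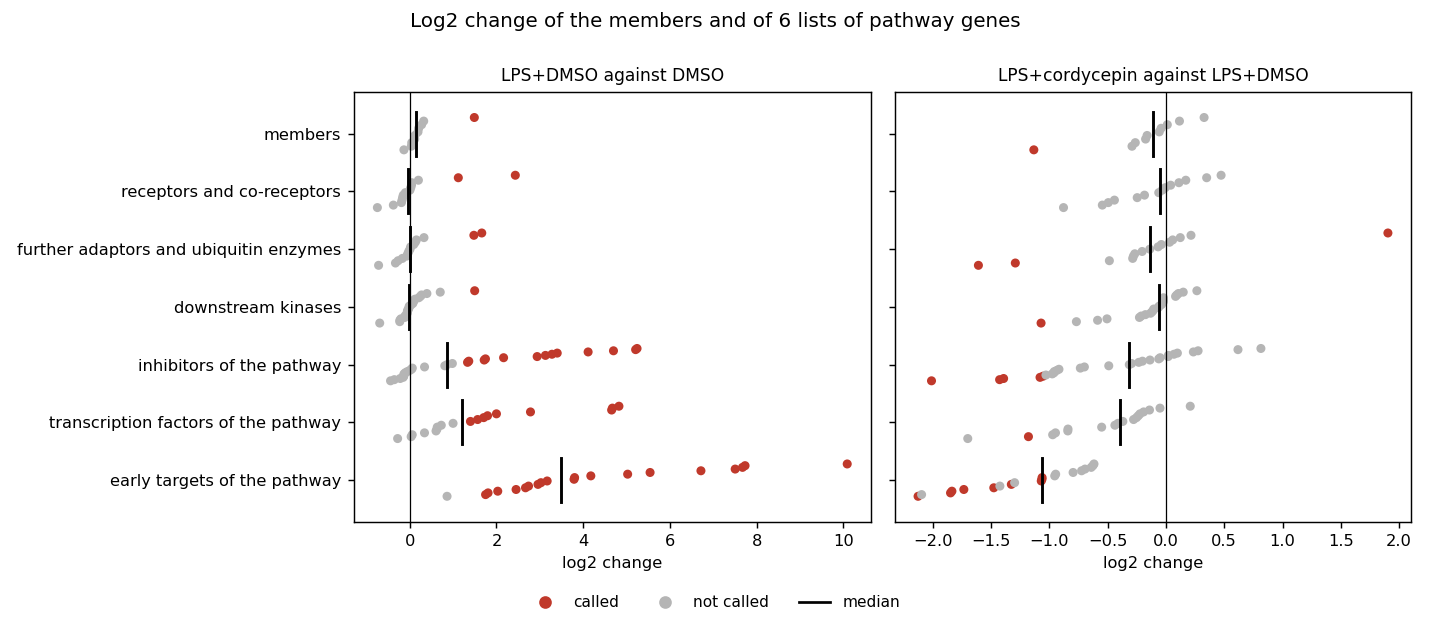
Log2 change (x axis) of each member and of each tested gene in 6 lists of pathway genes (rows) in LPS+DMSO against DMSO (left) and LPS+cordycepin against LPS+DMSO (right), with called genes in red and the median as a black line. The horizontal scales of the 2 panels differ. Medians with LPS are 0.16 for the members and 3.48 for the early targets, and the fitted values of genes not well above background in DMSO are plotted as measured.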

How the data were processed

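The authors hybridised Cy3-labelled RNA to 1-colour Agilent mouse arrays and deposited, for each array, the intensity of every spot after background subtraction by Agilent Feature Extraction (version 10.7.3.1 per the file headers, 10.10.1.1 per the submitters' processing notes), and a table of log2 values of 25775 spots whose normalization is not given in the sources used here. Outlier spots were left out, spots of a probe averaged as log2, and arrays brought to a common 75th percentile, taken from 18064 probes that were well above background on each array. Probes were kept (21597 of 55681) where some condition had them above background on 4 of 4 arrays, and a gene was represented by its brightest probe. The 4 condition means were fitted with limma 3.58.1 in R 4.3.3, without a block, and p-values were adjusted over 15877 genes (Benjamini-Hochberg). Calls needed at least 2-fold and an adjusted p below 0.05. The procedure was tested on simulated data, where 193 of 200 changed genes were called and 0 others. The simulated noise was independent between arrays, so this test does not cover effects of day or slide.

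The members and lists were chosen with earlier results of these data known. Named genes are all members, the 3 genes most like a called member, and up to 3 called genes of a list with the largest change in each of 2 comparisons. Others are named as the genes of a small count. Replicate numbers pair the samples, since the labels give 1 collection day per number. The mean correlation of residuals was 0.20 within a number (-0.06 to 0.44), 0.18 between numbers of a slide and -0.19 between slides. The number of arrays limits the precision. The alternatives were other scalings (quantile, all probes, 6 spiked-in controls), normexp (offset 50), the authors' values, other filters and probe rules, blocks for day and slide, each slide alone, other fits and thresholds, fits without each replicate or array, and the univariate test that the methods name. Reading Irak2 by its other probe, and fitting that probe with no filter, were added after the data were seen. The sequence of 1 probe is not reported here. Probe positions are on mm9, and promoters are from RefSeq (GRCm38.p6).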

Additional observations from a re-analysis of the deposited data

Results flagged for a closer look

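In 3 of 68 groups of 4 arrays, 1 array stood far from the other 3, and chance flags about 1 in 20 groups. Tirap measured 9.83 in DMSO replicate 2, where the nearest other array measured 10.35. Without that array, cordycepin against DMSO gave a log2 change of -0.36 for Tirap with a limma adjusted p of 0.0125, where the value over all arrays was -0.21 (adjusted p = 0.29). The 2 dimmer Irak1 probes measured 10.47 and 9.68 in LPS+cordycepin replicate 1, where the nearest other arrays measured 10.71 and 10.29.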

How the results depend on the processing

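The number of members called was recomputed under 38 alternative settings. LPS+DMSO against DMSO called 2 members rather than 1 with the mean of a gene's probes (Irak2, 1.00, adjusted p = 0.0027) and with Irak2 read by its other probe (2 members, 1.73, adjusted p = 0.000496), a setting chosen after the data were seen, whose probe passed the filter on dim probes through LPS+DMSO alone. With no filter that probe was still called (adjusted p = 0.00393), while its change in LPS+cordycepin against LPS+DMSO had an adjusted p of 0.117 rather than 0.0333. Cordycepin against DMSO called 2 rather than 0 with no minimum fold. LPS+cordycepin against cordycepin called 0 rather than 1 when arrays were scaled to the spiked-in controls, where Ticam1 rose by 0.88 (SE 0.38, adjusted p = 0.37). That scaling moved the median of all genes in this comparison to -0.35, and relative to it Ticam1 stood at 1.23. The cause was not tested. No other setting changed a count. Leaving out 1 replicate number or 1 array gave from 1 to 1 member in the 3 comparisons with a call and from 0 to 0 in the other two, and the replicate block kept all counts (1, 1, 0, 1 and 0).

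Ticam1 was called in 38 of 38 settings for LPS+DMSO against DMSO (1.38 to 1.57) and for LPS+cordycepin against LPS+DMSO (-1.26 to -1.05). For cordycepin against DMSO it passed the adjusted p in 37 of 38 settings and Map3k8 in 34 of 38 (adjusted p from 0.00354 to 1). Map3k8 missed it with spiked-in scaling, normexp, the authors' values and slide 1 alone. Of 1880 values of single members under alternatives, 87 had the opposite sign to the main value, and 0 of these were called in either. Over all genes, the calls ranged from 371 to 2372 for LPS+DMSO against DMSO (728 as reported), from 524 to 3049 for LPS+cordycepin against LPS+DMSO (1184), from 347 to 2505 for cordycepin against DMSO (881) and from 221 to 1294 for LPS+cordycepin against cordycepin (462), the most in each without a minimum fold. In the last of these, 268 were raised and 194 lowered, and 160 and 223 with spiked-in scaling. Dim signal limits the second Irak2 probe.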
